A study of Rattus norvegicus with 16 samples.

Results

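The adult fast, slow and cardiac myosin heavy chains were followed through every probe set whose single gene symbol is Myh1, Myh2, Myh4, Myh6 or Myh7, which gave 8 of the 8799 probe sets on the array. Myh1, Myh2 and Myh4 have 1 probe set each, Myh7 has 2 and Myh6 has 3. They were read on 16 single-colour arrays of normal rat muscle total RNA in 3 groups. EOM is extraocular muscle, the small muscles that turn the eye, on 4 arrays numbered 1 to 4. TA_6h is a skeletal muscle that the labels call ta, collected at 6 hours (8 arrays in 4 numbered samples), and TA_1h is the same muscle at 1 hour (4 arrays in 2 numbered samples). The labels name no strain, age, sex or treatment, do not say from what event the hours run, and give no hour for EOM. They do not say whether the numbers are separate animals, so p-values speak only for the spread among these samples, part or all of which may be technical.

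Myosin heavy chain is the motor of the thick filament: its head splits ATP and pulls on actin, and the gene in use sets much of a fibre's speed. Myh2, Myh1 and Myh4 encode the adult fast chains of type 2A, 2X and 2B fibres, from the slower to the faster. Myh7 encodes the slow chain of type 1 fibres, which is also the beta chain of the heart, and Myh6 the alpha chain of the heart. Most limb muscles use the fast and slow chains alone, whereas extraocular muscle is known for adding developmental and eye muscle chains.

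The genes lie in 2 tandem clusters. In the RefSeq annotation of the rat assembly GRCr8, Myh3, Myh2, Myh1, Myh4, Myh8 and Myh13 follow one another on chromosome 10, and Myh6 and Myh7 are neighbours on chromosome 15. The 250 bases before the start of the 3 fast genes are printed from RefSeq. They show how alike the starts of these genes are, each of which is read below through its own probe set. They are read on the plus strand, 5′ to 3′, at chr10:52355489-52355738 (Myh2), chr10:52384662-52384911 (Myh1) and chr10:52421898-52422147 (Myh4). Capitals mark the longest stretch that all 3 share and the letters TATAAA.
Myh2: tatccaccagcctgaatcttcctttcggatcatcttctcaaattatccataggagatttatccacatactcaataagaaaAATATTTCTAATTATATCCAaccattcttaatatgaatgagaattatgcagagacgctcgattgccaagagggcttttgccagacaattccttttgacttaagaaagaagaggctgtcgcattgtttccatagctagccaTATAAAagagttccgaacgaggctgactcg
Myh1: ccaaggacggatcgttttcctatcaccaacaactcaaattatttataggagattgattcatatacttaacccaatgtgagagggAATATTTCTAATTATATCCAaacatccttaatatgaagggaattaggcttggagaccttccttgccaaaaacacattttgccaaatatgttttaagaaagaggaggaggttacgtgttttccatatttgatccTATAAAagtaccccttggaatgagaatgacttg
Myh4: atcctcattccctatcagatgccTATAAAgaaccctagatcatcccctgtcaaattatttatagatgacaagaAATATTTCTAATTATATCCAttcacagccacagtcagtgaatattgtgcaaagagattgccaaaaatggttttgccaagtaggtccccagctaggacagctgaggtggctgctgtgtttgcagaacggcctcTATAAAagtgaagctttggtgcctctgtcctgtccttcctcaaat
The shared stretch is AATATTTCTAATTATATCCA, 20 bases long, and begins at position -170 in Myh2, -166 in Myh1 and -177 in Myh4, where -1 is the base before the start. Searched on both strands, it was found in 5 of 33469 RefSeq windows of 300 bases (250 before the start and 50 from it), or 0.0149%, and the other 2 carry the symbol of a single unnamed locus. TATAAA on the gene's strand began at -30 in Myh2, -33 in Myh1 and at both -45 and -227 in Myh4. On either strand it was in 14.2% of all windows, and it was not found in the windows of Myh7 and Myh6. A MEF2 motif, the A and T rich site of the MEF2 muscle factors, was in the windows of Myh1 (-212) and Myh4 (-196) and in 3.29% of all windows. At its position in both genes it overlaps TATAAA read on the opposite strand. The other motifs searched, also on both strands, were the E-box CANNTG (72.1% of all windows; in Myh4, Myh7 and Myh6), CATTCC (14.2%; in Myh1, Myh4 and Myh6) and the CArG box (1.64%; in Myh4). The windows of Myh6 and Myh7 shared no run longer than 9 bases. Such a match describes letters and says nothing of whether a factor binds there.

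The deposited values are linear intensities with a mean, after trimming 2% at each end, of 801.1 to 801.8 on every array. In EOM 24.3% of all intensities were below 0, and no TA intensity was, so for every EOM value set against a TA value below, the muscle and the way its probes were summarised cannot be told apart. The 8 myosin probe sets were above the floor of the log2 scale (an intensity of 56.5, the 25th percentile) on all arrays, except for 1 array of a Myh6 probe set at 56.4. On 5 TA arrays (TA_6h 3a, 3b, 4a and 4b and TA_1h 2b) the signal of the beta-actin control in its middle was 0.146 to 0.390 of that at its 3′ end. This ratio was 0.815 to 1.28 for the remaining 7 TA arrays, and EOM had 0.891 to 0.978. These 5 are called low-actin arrays below. The GAPDH control did not follow: its middle over 3′ ratio was 0.959 to 1.52 on the low-actin arrays, and 0.161 to 0.399 on 4 of the other TA arrays (TA_1h 1a and 2a, TA_6h 1b and 2b), which are called low-GAPDH arrays. The controls thus sorted the TA arrays differently, and values without each kind are given where they change a call. TA_1h sample 2 averages a low-actin array with one that is not. Summed over 6 skeletal muscle markers, intensities were 63698 to 76089 in EOM, 53566 to 144920 in TA_6h and 53785 to 139001 in TA_1h, and none of the 6 was below the floor on all arrays of a group. Taken singly, 1 of the 6 was called higher and 3 lower in EOM than in TA_6h (limma adjusted p under 0.05), with a median log2 difference of -0.40. Against TA_1h 1 was called higher and 2 lower. Over all probe sets tested, 21.9% were called higher and 25.3% lower against TA_6h, and 17.7% and 19.5% against TA_1h. The part of these markers in the myosin differences was not tested.

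**Figure D1:**
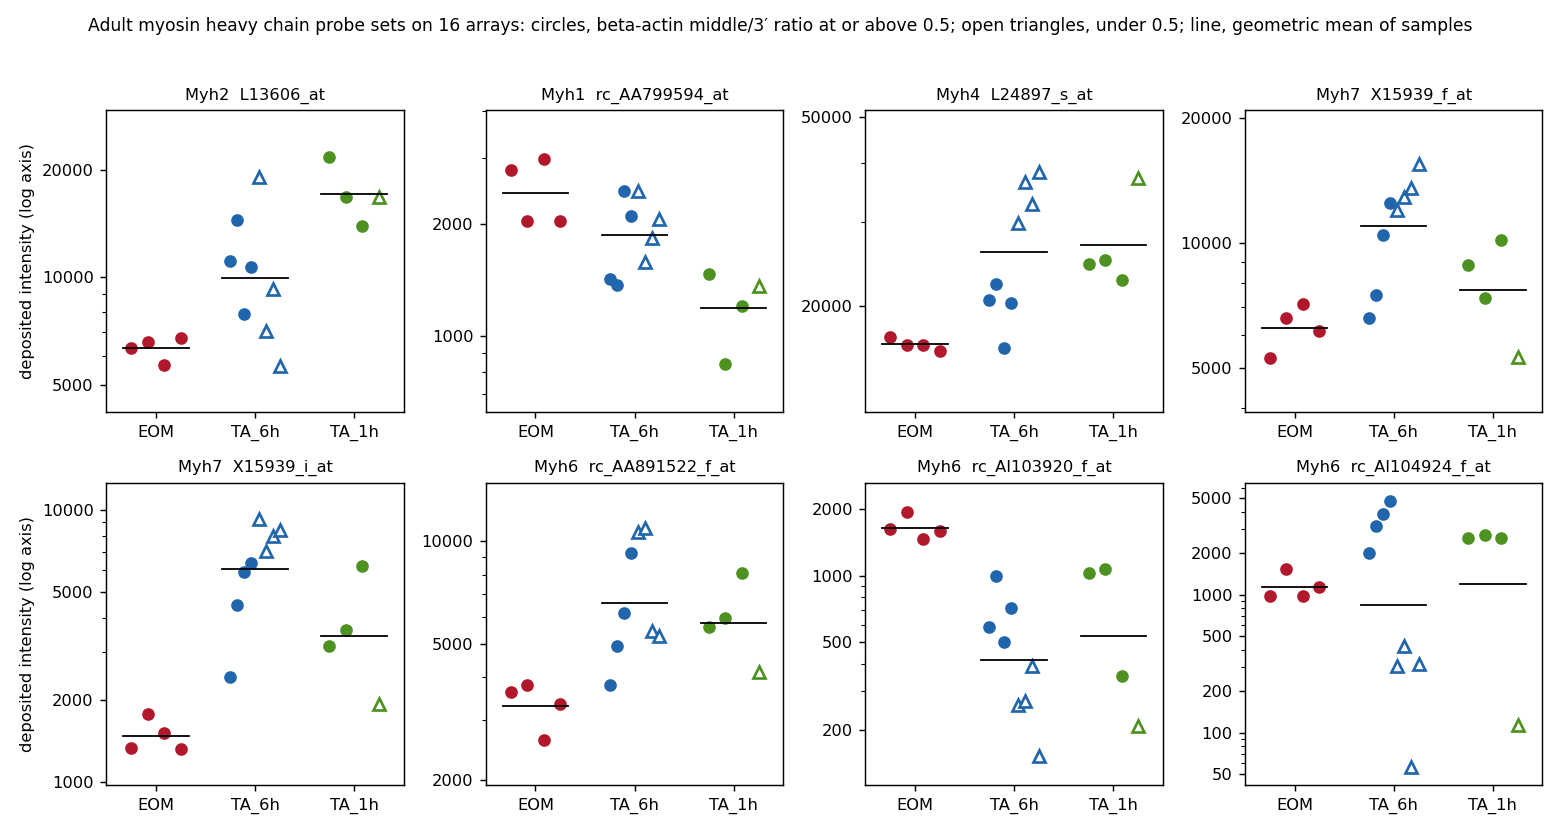
Deposited intensity (vertical log axes) of the 8 myosin probe sets on the 4 EOM, 8 TA_6h and 4 TA_1h arrays; open triangles are the 5 low-actin TA arrays, circles all others, and lines the geometric means of the numbered samples. Myh6 rc_AI103920_f_at is higher and Myh7 X15939_i_at lower on every EOM array than on any TA array, and in Myh6 rc_AI104924_f_at the EOM arrays lie between the 2 kinds of TA array.

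Of the adult fast chains, Myh2 was lower in extraocular muscle than in either TA group. Myh2 (probe set L13606_at), the 2A chain, had intensities of 6336, 6585, 5678 and 6747 on EOM arrays 1 to 4. The 8 TA_6h arrays ran from 5651 to 19063 with a median of 9991, and the TA_1h arrays gave 21718, 16747, 13870 and 16795. All TA_1h arrays lay above all EOM arrays, and 1 TA_6h array, 4b, lay below them, with the other 7 above. The level was 6337 ± 470 (SD, n = 4) in EOM, 10171 ± 2434 (SD, n = 4) in TA_6h and 17167 ± 2693 (SD, n = 2) in TA_1h. Myh2 was 1.57-fold lower in EOM than in TA_6h (log2 -0.65 ± 0.20 SE, limma adjusted p = 0.022) and 2.70-fold lower than in TA_1h (log2 -1.43 ± 0.25, limma adjusted p = 0.0014). The first of these calls, made at an adjusted p under 0.05, was lost without EOM 3 (-0.60), TA_6h 1 (-0.54) or TA_6h 3 (-0.58), with only low-actin arrays as TA (-0.54) and when all arrays were counted singly (limma adjusted p = 0.052) or with their number as a random block (limma adjusted p = 0.085), and without the low-GAPDH arrays (-0.55, limma adjusted p = 0.052). In bulk muscle, fewer fibres of a type and less transcript per fibre cannot be told apart.

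Myh1 ran in the opposite order to Myh2, highest in EOM and lowest in TA_1h. Myh1 (rc_AA799594_at), the 2X chain, gave 2775, 2028, 2979 and 2037 on the EOM arrays. TA_6h ranged from 1371 to 2446 with a median of 1944, and TA_1h gave 1465, 843, 1199 and 1357. Every EOM array stood above every TA_1h array, while EOM 2 and 4 lay inside the TA_6h range. Against TA_1h the difference was 2.03-fold (log2 1.02 ± 0.25, limma adjusted p = 0.011). That call was lost without TA_1h 1 (0.92, limma adjusted p = 0.081) with TA_1h 2b, the low-actin array, as the only TA_1h array (0.83), and with the same median of positive intensities (0.18). Against TA_6h the difference was 0.38 ± 0.21 on the log2 scale (95% limits -0.09 to 0.84, limma adjusted p = 0.16), so these neighbours in the order did not differ beyond their spread, and a difference of up to 0.84 is not excluded by the limits. Its sign turned (-0.45) when each array was scaled to the same median of its positive intensities, a scaling that moved the median of all probe sets from -0.11 to -0.66.

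Myh4 was the fast chain whose value in TA went most closely with the actin control. Myh4 (L24897_s_at), the 2B chain of the fastest fibres, gave 17182, 16531, 16488 and 16057 on the EOM arrays, the narrowest spread of the 8 probe sets there (highest over lowest 1.07). The suffix _s marks a probe set that similar transcripts can share. TA_6h ran from 16298 to 38327 with a median of 26082, and TA_1h gave 24495, 25025, 22624 and 37208. A single TA array, the unlettered TA_6h 2 at 16298, fell within the EOM range. The 5 low-actin arrays held the highest TA values, 29907 to 38327, with no overlap with the other 7 at 16298 to 25025. Myh4 was 1.57-fold lower in EOM than in TA_6h (log2 -0.65 ± 0.23, limma adjusted p = 0.038), and the difference from TA_1h was -0.69 ± 0.28 (limma adjusted p = 0.075, called in 8 of 29 alternatives). Without the low-actin arrays the first value was -0.25 and not called and the second -0.52 and called. With the low-actin arrays kept as a batch term the first was -0.27 and not called. The call against TA_6h was also lost without the low-GAPDH arrays (-0.60), after quantile normalization (-0.15), with the same median of all intensities (-0.54), with number as a replicate block (-0.65), and without any 1 of the EOM samples (-0.67 to -0.63), TA_6h 3 (-0.53) or TA_6h 4 (-0.50).

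The slow chain Myh7 was lower in EOM than in TA_6h through both of its probe sets. The first, X15939_f_at (_f marks probes that fit a gene family), gave 5268, 6570, 7138 and 6114 on the EOM arrays. TA_6h gave 6577 to 15467 with a median of 12259, and TA_1h 8863, 7355, 10134 and 5292. EOM overlapped with TA_6h 1 and with TA_1h 2b, the lowest TA array. The difference from TA_6h was -0.81 ± 0.23 (1.76-fold lower, limma adjusted p = 0.015), which without the low-actin arrays became -0.52 and was not called. The difference from TA_1h was -0.30 ± 0.28 (95% limits -0.93 to 0.32, limma adjusted p = 0.43). With TA_1h 2b as the only TA_1h array it was 0.24, and without the low-GAPDH arrays -0.00098.

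The other Myh7 probe set, X15939_i_at, showed a larger difference. It gave 1335, 1785, 1512 and 1319 on the EOM arrays, 2426 to 9280 (median 6732) in TA_6h, and 3168, 3633, 6209 and 1941 in TA_1h, so that no TA array fell to the EOM level. This probe set was 4.11-fold lower in EOM than in TA_6h (log2 -2.04 ± 0.28, limma adjusted p = 0.00028), where X15939_f_at gave 1.76-fold. The call of X15939_i_at held in all 29 alternatives tried (-2.87 to -1.61). Against TA_1h the difference was -1.22 ± 0.35 (2.32-fold lower, limma adjusted p = 0.020). It was no longer called without TA_1h 1 (-1.23), without TA_1h 2 (-1.20), without the low-GAPDH arrays (-0.85), or with TA_1h 2b alone as TA_1h (-0.40). The lowest TA value of both Myh7 probe sets was on TA_1h 2b, whereas the 4 low-actin arrays of TA_6h were high, at 12013 to 15467 in the first and 7067 to 9280 in the other.

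The 3 probe sets of Myh6, the cardiac alpha chain, disagreed in sign. All 3 carry the suffix _f, so transcripts of related genes may add to their signal. In rc_AA891522_f_at, the brightest, the EOM arrays gave 3617, 3792, 2611 and 3329. TA_6h ran from 3790 to 10984 with a median of 5833, and TA_1h gave 5620, 5954, 8071 and 4145. Only EOM 2 and the unlettered TA_6h 1 overlapped, by a margin of a few units. The difference was -0.9997 ± 0.27 from TA_6h (limma adjusted p = 0.014) and -0.81 ± 0.34 from TA_1h (limma adjusted p = 0.087, called in 5 of 29 alternatives). Without the low-actin arrays the first was -0.79 and not called (limma adjusted p = 0.053) and the second -1.05 and called.

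The second Myh6 probe set, rc_AI103920_f_at, was higher in EOM. Its EOM arrays gave 1628, 1937, 1458 and 1584. TA_6h gave 153 to 1000.2 with a median of 448, and TA_1h 1029.9, 1075, 352 and 208. Every TA array was below every EOM array, and the low-actin arrays were low in TA (153 to 392, against 352 to 1075 on the other 7). The difference from TA_6h was 1.98 ± 0.47 (3.95-fold higher in EOM, limma adjusted p = 0.0067). It was called in all 29 alternatives, at 1.28 without the low-actin arrays and 2.68 with only these as TA. Against TA_1h it was 1.62 ± 0.58, just outside the threshold (limma adjusted p = 0.0504), and was called in 16 of 29 alternatives, with a value of 2.60 without TA_1h 1 and 0.64, not called, without TA_1h 2.

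The third Myh6 probe set, rc_AI104924_f_at, split the TA arrays. EOM gave 979, 1541, 975 and 1131, TA_6h 56.4 to 4787 (median 1221), and TA_1h 2601, 2717, 2565 and 114. The 5 low-actin arrays held 56.4 to 428 and the other 7 TA arrays 2014 to 4787, with all 4 EOM arrays between them. Averaged over both kinds, the difference was 0.42 ± 1.00 from TA_6h (95% limits -1.82 to 2.67, limma adjusted p = 0.75) and -0.08 ± 1.23 from TA_1h (limma adjusted p = 0.97). Without the low-actin arrays EOM was lower, by a log2 difference of -1.53 from TA_6h and -1.20 from TA_1h, both called. With only low-actin arrays as TA it was higher, 2.38 and 3.31, both called. Without the low-GAPDH arrays the values were 0.54 and 1.03, neither called. Within TA_1h sample 2 the arrays 2a and 2b differed 22.5-fold in this probe set, whereas arrays of 1 number differed by at most 1.74-fold in Myh1, 2.70-fold in Myh2 and 1.64-fold in Myh4. The part of the actin ratio, and of what lowers it, in the Myh4 and Myh6 differences was not tested.

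**Figure D2:**
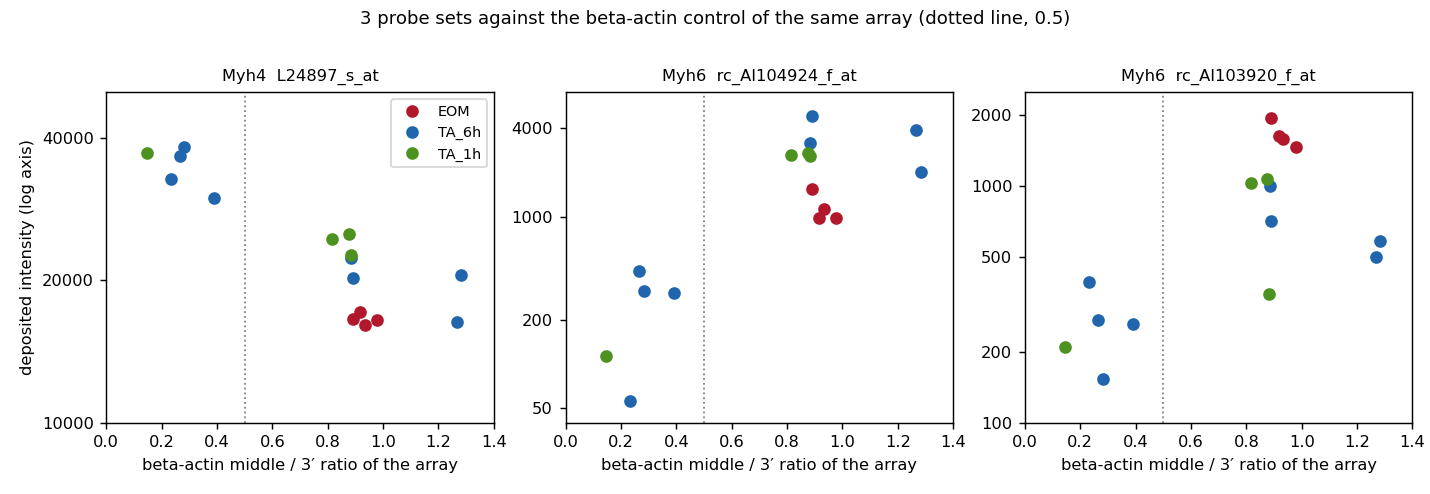
Intensity (vertical log axes) of Myh4 and of 2 Myh6 probe sets against the beta-actin middle over 3′ ratio of the same array, for all 16 arrays coloured by group. The 5 TA arrays left of 0.5 are the highest for Myh4 (29907 to 38327) and the lowest for rc_AI104924_f_at (56.4 to 428), and EOM stands above all TA arrays in rc_AI103920_f_at.

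Against TA_6h, 6 of the 8 probe sets were called, 1 higher and 5 lower in EOM. Over all 7640 probe sets tested 47.2% were called, 21.9% higher and 25.3% lower, so that calls were common on these arrays. The median log2 difference was -0.65 over the 8 and -0.11 over all tested. Against TA_1h, 3 of 8 were called (Myh1 higher, Myh2 and Myh7 X15939_i_at lower), where 37.2% of all were called, 17.7% higher and 19.5% lower. Scaling to the same median of positive intensities changed the split over all probe sets against TA_6h from 1671 higher and 1935 lower to 664 and 3844. All EOM arrays stood apart from all TA arrays in 2 of the 8, Myh6 rc_AI103920_f_at and Myh7 X15939_i_at, against 36.4% of all probe sets. Both comparisons use the same EOM arrays.

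**Figure D3:**
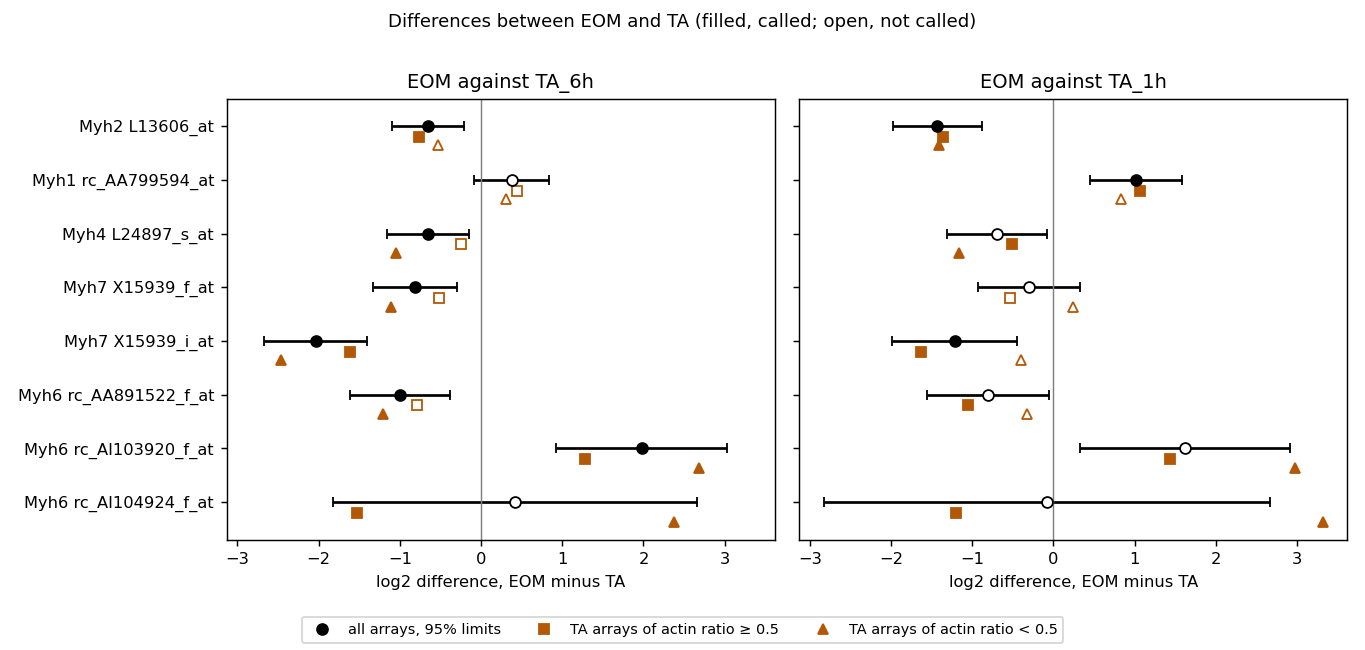
Log2 difference (horizontal axis, EOM minus TA) of each myosin probe set from TA_6h (left) and TA_1h (right): circles with 95% limits use all arrays, squares leave out the low-actin arrays and triangles use only these as TA; filled symbols are called. Square and triangle lie on opposite sides of 0 in Myh6 rc_AI104924_f_at in both panels (-1.53 and 2.38 from TA_6h) and in Myh7 X15939_f_at from TA_1h.

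Between the TA groups no myosin probe set was called, and 0.0% of all 7640 were. At an unadjusted p under 0.05 stood 3 of the 8 and 424 of all. Their log2 differences, TA_6h minus TA_1h, were -0.78 ± 0.25 for Myh2 (limma adjusted p = 0.71), 0.65 ± 0.25 for Myh1 and 0.82 ± 0.35 for Myh7 X15939_i_at (limma adjusted p = 0.88 for both). Myh4 differed by -0.04 ± 0.28, with 95% limits of -0.66 to 0.57. The Myh7 value was -0.027 without the low-actin arrays.

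The balance between chains was followed through the log2 ratio of the brightest probe sets of 2 genes in a sample, which no scaling of the array can move. Only the change of a ratio between groups is read, since 2 probe sets differ in their binding. Myh1 over Myh2 lay between -1.73 and -0.93 in the 4 EOM samples and between -3.18 and -1.90 in TA_6h, with no overlap. The change was 1.03, or 2.04-fold toward Myh1 (two-sided exact permutation p = 0.029, the smallest that 4 against 4 allow; 0.17 after adjustment over 6 ratios). Without the low-GAPDH arrays it was 0.89 (exact permutation p = 0.086). Myh1 over Myh4 changed by 1.03 as well (exact permutation p = 0.057, adjusted p = 0.17), with 1 TA_6h sample inside the EOM range. Myh2 over Myh4 changed by -0.0031, from a mean of -1.39 ± 0.68 (SD, n = 4) in TA_6h to -1.39 ± 0.13 (SD, n = 4) in EOM. Without the low-actin arrays the TA_6h mean was -0.87 ± 0.16 (SD, n = 2) and the change -0.52 (exact permutation p = 0.067, the smallest that 4 against 2 allow). Myh7 over Myh2 (-0.16), Myh7 over Myh4 (-0.16) and Myh6 over Myh7 (-0.19) overlapped between the groups, with adjusted exact permutation p of 0.86 each. The Myh7 ratios depended on the probe set. With X15939_i_at, Myh7 over Myh2 changed by -1.39 (2.61-fold toward Myh2 in EOM, exact permutation p = 0.086, adjusted p = 0.10) and Myh7 over Myh4 by -1.39 (2.62-fold toward Myh4, exact permutation p = 0.029, adjusted p = 0.057). Without the low-actin arrays, Myh7 over Myh2 with the brightest probe set turned to 0.25.

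Against TA_1h the same ratios stood further apart, but the changes of Myh7 over Myh2 and of Myh7 over Myh4 had the opposite sign. Myh1 over Myh2 went from -3.84 ± 0.37 (SD, n = 2) in TA_1h to -1.39 ± 0.39 (SD, n = 4) in EOM, a change of 2.45, or 5.48-fold. Myh1 over Myh4 changed by 1.72, Myh7 over Myh2 by 1.13 and Myh2 over Myh4 by -0.74. These 4 ratios and Myh6 over Myh7 (-0.51) did not overlap between the groups, but 4 samples against 2 cannot reach an exact permutation p under 0.067, so none could pass. Myh7 over Myh4 changed by 0.39 and overlapped. With X15939_i_at the changes against TA_1h were 0.21 for Myh7 over Myh2 and -0.52 for Myh7 over Myh4. Myh6 over Myh7 depended on the probe set too. Against TA_6h it changed by -0.19 with the brightest of each gene, by 2.79 and 1.24 with the other Myh6 probe sets, and by 1.04 with Myh7 X15939_i_at.

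**Figure D4:**
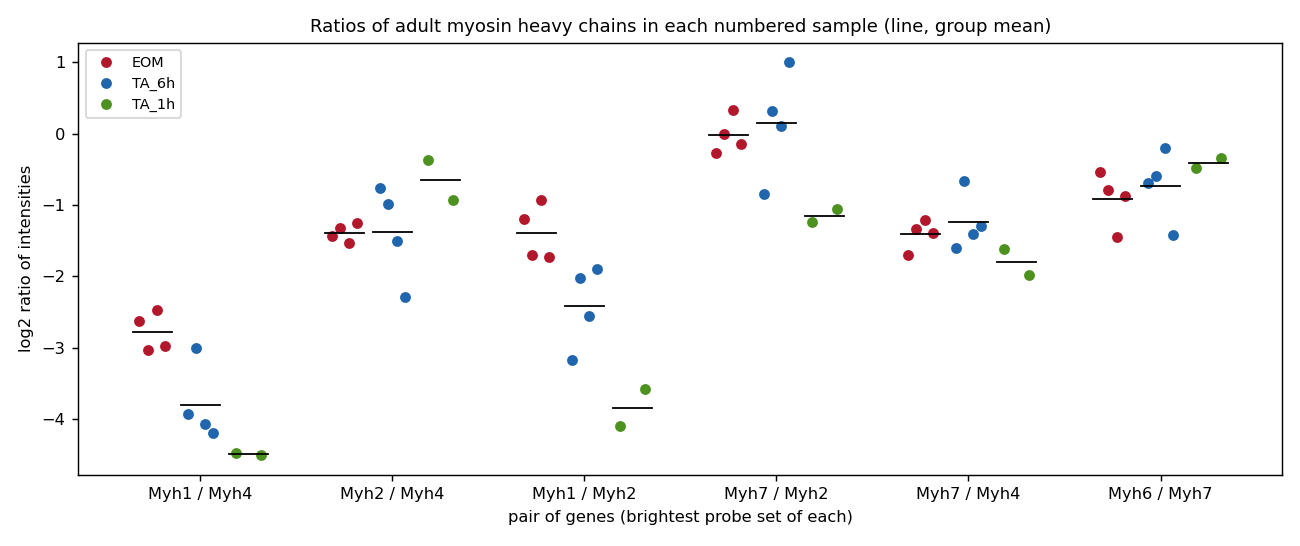
Log2 ratio of the intensities of 2 myosin genes (vertical axis) in each numbered sample of EOM (4), TA_6h (4) and TA_1h (2), for 6 pairs of genes, with lines at the group means. Myh1 over Myh2 is highest in all 4 EOM samples (-1.73 to -0.93) and lowest in TA_1h, and Myh2 over Myh4 has a mean of -1.39 in both EOM and TA_6h with all arrays in (-0.87 in TA_6h without the low-actin arrays).

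Other myosin heavy chain genes differed in the opposite direction to most members. For this list and those below, 21.9% of all probe sets tested were called higher in EOM than in TA_6h and 25.3% lower. All 4 other myosin heavy chain genes tested were called higher in EOM than in TA_6h: Myh8, the neonatal chain (log2 6.70 ± 0.20), Myh13, the extraocular chain (5.18 ± 0.32), Myh11, the smooth muscle chain (2.50 ± 0.46), and Myh3, the embryonic chain (1.41 ± 0.44). Myh8 was at 6846 to 9009 on the EOM arrays, and at 9.69 to 126 in TA_6h, where 7 of 8 arrays passed the floor. Myh11 was at 8.92 to 339 in TA_6h, where 5 of 8 arrays passed it. The call of Myh3 was lost without EOM 4 (1.33), TA_6h 1 (1.11) or TA_6h 2 (1.20), with only low-actin arrays as TA (0.64) and with the same median of positive intensities (0.59).

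Among genes that work beside the fast chains, 7 of 12 were called lower and 1 higher in EOM than in TA_6h, with a median of -0.71. Mybpc2, the fast myosin binding protein C of the thick filament, was at 2264 to 4063 in EOM and 15067 to 30532 in TA_6h, 6.84-fold lower (log2 -2.77 ± 0.23, limma adjusted p = 1.1e-05). Myl1, the fast essential light chain that sits on the myosin neck (-1.04 ± 0.15), and Eno3, the muscle enolase of glycolysis (-1.02 ± 0.26), were lower too. Ckm, the muscle creatine kinase, was called higher (4.39 ± 0.82), but its TA_6h arrays ran from 0.0219 to 5979 with 5 of 8 above the floor, and it was not called without the low-actin arrays (3.11). Tnnt3 (0.01), Tnnc2 (-0.04) and Atp2a1 (-0.05), the fast troponin subunits T and C and the fast calcium pump, had differences near 0 and were not called.

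Of the slow partners 3 of 11 were called higher and 3 lower, with a median of -0.10. These are near the values over all probe sets tested (21.9% higher, 25.3% lower, median -0.11). Csrp3, a muscle LIM protein of the Z disc, was 6.93-fold lower in EOM (-2.79 ± 0.38), and Myl3, the slow and ventricular essential light chain, 3.56-fold lower (-1.83 ± 0.24). Pln, the brake of the slow calcium pump (2.43 ± 0.25), and Casq2, the slow and cardiac calsequestrin (1.27 ± 0.41), were higher. Pln was near the floor in TA_6h, at 20.5 to 122 with 6 of 8 arrays above it. The Casq2 call was lost without the low-actin arrays (0.47), with these as a batch term (0.50), with the same median of positive intensities (0.44), without a filter, and without EOM 1 (1.20), EOM 3 (1.30), EOM 4 (1.28), TA_6h 3 (0.99) or TA_6h 4 (1.01).

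Of the cardiac partners 3 of 9 were called higher and 4 lower, with a median of 0.57, so the list did not move one way. Myl4, the atrial essential light chain also used in embryonic muscle, was at 1771 to 1991 in EOM and 151 to 466 in TA_6h (log2 2.81 ± 0.25). Nppb, the B-type natriuretic peptide, was higher as well (2.44 ± 0.60), a call lost with only low-actin arrays as TA (2.39). In TA_6h Nppb was near the floor, at 46.0 to 98.6 with 6 of 8 arrays above it, so the size of its difference depends on the floor. Ankrd1, a stretch-responsive ankyrin repeat protein, was lower than in TA_6h (-3.18 ± 0.34), where its arrays ran from 907 to 23783, and was not called against TA_1h (-0.77, limma adjusted p = 0.17), nor was the difference of 2.42 between the TA groups (limma adjusted p = 0.47). Nppa, the atrial natriuretic peptide, was below the floor on all EOM arrays and 3.51-fold lower on the floored scale. The size of its difference rests on the floor (log2 -3.83 to -0.67 over the alternatives). Over the 3 cardiac muscle markers tested (0 called higher, 2 lower) the summed intensity was 750 to 784 in EOM, 1002 to 1701 in TA_6h and 910 to 1376 in TA_1h. Their part in the Myh6 and Myh7 differences was not tested.

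No tested regulator of fibre type was called higher in EOM and 9 of 14 were called lower, with a median of -1.05. Ppard, a nuclear receptor that promotes oxidative fibres, was at 1703 to 2824 in TA_6h and at -92.6 to 237 in EOM, above the floor on 2 of 4 arrays. It was called lower, but the size of the difference rests on the floor (log2 -5.33 with a floor at the 10th percentile, -3.69 at the 40th). Myog, myogenin, was at 338 to 1831 in TA_6h and below the floor on all EOM arrays, 13.9-fold lower on the floored scale. The size of this difference rests on the floor too (log2 -5.81 to -2.54 over the alternatives). Cebpb, a transcription factor (-2.04 ± 0.18), and Ppp3ca, the catalytic alpha subunit of calcineurin, the phosphatase that links nerve activity to slow genes (-1.37 ± 0.19), were lower. Against TA_1h the 5 lists, in the order above, gave 4 higher and 0 lower of 4, 0 and 8 of 12, 1 and 3 of 11, 3 and 3 of 9, and 0 and 8 of 14. Over all probe sets tested, 17.7% were called higher and 19.5% lower in that comparison.

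**Figure D5:**
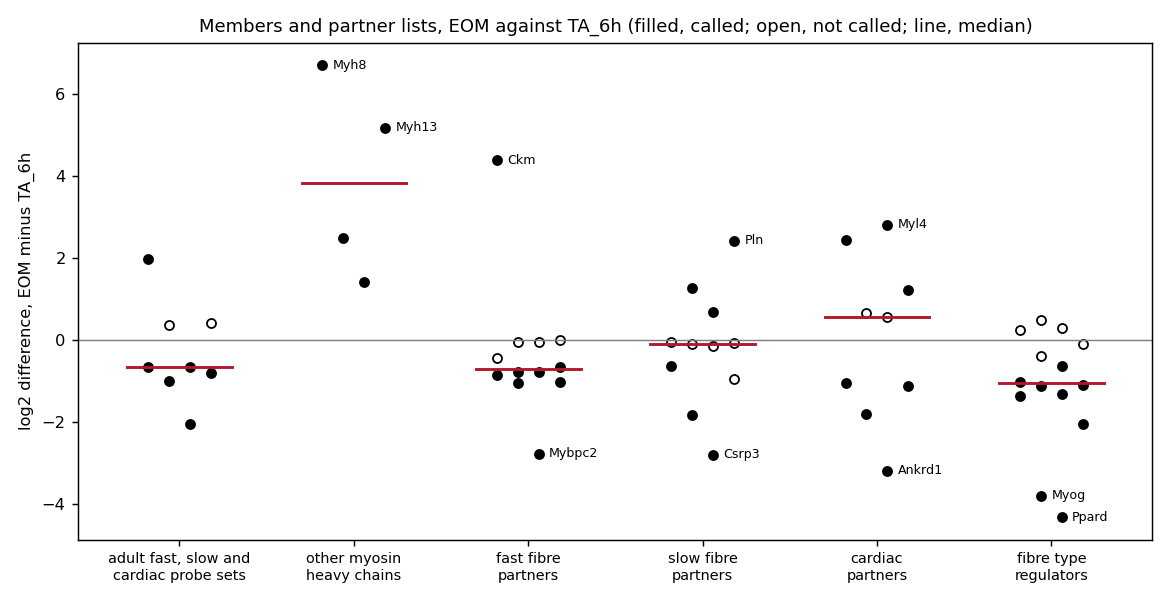
Log2 difference (vertical axis, EOM minus TA_6h) of the 8 myosin probe sets and of the brightest probe set of each gene in 5 partner lists; filled points are called, and lines mark medians. The other myosin heavy chains all lie above 0 (1.41 to 6.70), the fast partners have a median of -0.71 with Ckm as an exception at 4.39, and no filled point of the regulators is above 0.

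Markers of other cell types differed between the muscles beside these results. Over all probe sets tested, 21.9% were called higher in EOM than in TA_6h and 25.3% lower. The 4 nerve and Schwann cell markers were all called higher in EOM than in TA_6h, with summed intensities of 8379 to 12712 in EOM, 1029 to 1785 in TA_6h and 1491 to 2075 in TA_1h. Of 5 immune markers 4 were called higher (summed 11067 to 16146, 2686 to 5551 and 2755 to 3352 in the same order). Of 5 smooth muscle and pericyte markers, Myh11 among them, 3 were higher and 1 lower (5947 to 7723, 2249 to 13397 and 3502 to 7291). Fibroblast markers had 2 of 5 higher (56142 to 72427, 36364 to 68499 and 24901 to 36998), adipocyte markers 2 of 4 higher (9558 to 11368, 3782 to 8826 and 5672 to 7523), and endothelial markers 1 of 4 higher and 1 lower (668 to 1044, 574 to 1283 and 614 to 999). Their part in the myosin differences was not tested.

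The genes whose levels ran most like each member were found by Pearson's r of log2 values over the 10 numbered samples, among 3319 probe sets of other genes above the floor on all arrays. The samples share the 3 groups and the 2 kinds of TA array, so r describes these arrays only. Myh4 had the closest companions, Eci1 of fatty acid oxidation and Suclg1 of the citric acid cycle (both r = 0.99) and the enolase Eno3 (r = 0.98). Myh7 X15939_f_at ran with Pfkfb1 (r = 0.97), a regulator of glycolysis, and with Mfn2 and Timm29 of the mitochondrion (both r = 0.94). Myh2 ran with Psmb5 (r = 0.95), a proteasome subunit, Ccng1 (r = 0.94) and Hagh (r = 0.93). Myh6 rc_AA891522_f_at ran with the nuclear receptor Nr4a1 (r = 0.95), C9h2orf69 (r = 0.92) and the splicing factor Rbfox2 (r = 0.91). Myh1 ran with Taf10 (r = 0.93), Hax1 (r = 0.92) and Ap1b1 (r = 0.91), whose log2 differences between EOM and TA_6h were 0.55 to 0.60. No companion of one member was among those of another.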

How the data were processed

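The authors deposited linear, already scaled intensities, with a value for each of the probe sets of an array. How probes were summarised: not given in the sources used here. Intensities were raised to a floor (the 25th percentile, 56.5) and taken to log2. Arrays of 1 number and group were averaged, with the unlettered TA_6h arrays 1 and 2 joined to 1b and 2b by inference. Probe sets that were no controls and passed the floor on 4 or more arrays (7640) entered a single limma fit of all 3 groups (version 3.58.1, R 4.3.3; lmFit, eBayes; 7 residual and 2.83 prior degrees of freedom), with Benjamini-Hochberg adjustment and calls at an adjusted p under 0.05. The fit was tested on simulated data. It gave each adjusted p of a probe set. A ± after a log2 difference is its standard error, and folds are on the floored log2 scale. Intensities given as mean ± SD are over numbered samples. Ratios were compared with two-sided exact permutation tests (scipy 1.17.1). The number of arrays limits the precision.

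Probe sets were named from GEO's platform annotation: 7006 have 1 symbol, 308 several and 1485 none. Named were all 8 members, up to 4 called genes per partner list with the largest difference from TA_6h (brightest probe set of a gene), and the 3 genes most like each member; Tnnt3, Tnnc2 and Atp2a1 were added after their values were seen. Members and lists were chosen with earlier results of these data known. Alternatives changed the floor, scaling, filter, unit of replication, variance model, samples and low-actin arrays; scaling to the same median of all intensities and leaving out the low-GAPDH arrays were added after seeing the data. Promoter windows are RefSeq's for GRCr8; all 5 genes matched by gene number. Figures were drawn with matplotlib 3.10.9.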

Additional observations from a re-analysis of the deposited data

How the results depend on the processing

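Of the 29 alternatives (28 for TA_6h against TA_1h), the direction and call of Myh6 rc_AI103920_f_at and Myh7 X15939_i_at against TA_6h and of Myh2 against TA_1h held in all. The cause of the changes below was not tested, other than where fewer probe sets or samples enter. Whether the replicate numbers pair the samples cannot be told from these values. Deviations of same-numbered EOM and TA samples from their group means correlated at -0.04 to 0.10, and those of the TA groups at -0.42 and 0.39. The deviations of the 2 TA_1h samples mirror each other, so the signs of the last 2 values carry no information. With number as a replicate block, 5 and 4 members were called against TA_6h and TA_1h, and 3507 and 2540 of all 7640 probe sets. In that setting Myh4 against TA_6h was not called (limma adjusted p = 0.055). Myh6 rc_AI104924_f_at turned to 0.95 against TA_1h and 0.53 between the TA groups, and rc_AI103920_f_at to 0.050 there.

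Calls over all probe sets fell to 1927 (TA_6h) and 1512 (TA_1h) when only those above the floor on all 16 arrays were tested. Between the TA groups they went from 0 to 8 without a filter, and to 1 above the floor on all arrays. They were 1 with each array as its own sample and 1 without the unlettered arrays. Without the low-actin arrays they were 45, with the low-actin arrays as a batch term 57, and without the low-GAPDH arrays 6. With a sample left out they were 1861 to 3045 against TA_1h and 0 to 1 between the TA groups. Members called against TA_1h went from 3 to 5 with the same median of positive intensities and 5 with each array as its own sample. They were 7 without the low-actin arrays, 5 with these as a batch term and 5 with only the groups compared. With an EOM or TA_6h sample left out they were 3 to 5. They were fewer than 3 with a TA_1h sample left out, which leaves 1 sample in that group. Calls over all probe sets rose in the first 5 of these settings as well, from 2843 to 3839, 3086, 3584, 3588 and 3259.

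Against TA_6h the sign turned for Myh1 (-0.45) and rc_AI104924_f_at (-0.41) with the same median of positive intensities, and for rc_AI104924_f_at without the low-actin arrays (-1.53), with these as a batch term (-1.62) and with a sample left out (-0.47 to 1.20). Against TA_1h it turned for rc_AI104924_f_at with the same median of all intensities (0.020), with only low-actin arrays as TA (3.31), without the low-GAPDH arrays (1.03) and with a sample left out (-1.23 to 1.07), and for Myh7 X15939_f_at with only low-actin arrays (0.24). Between the TA groups, where no member was called, Myh4 turned after quantile normalization (0.090), without the unlettered arrays (0.0086) and with a sample left out (-0.19 to 0.13). Without the low-actin arrays rc_AA891522_f_at (-0.26), rc_AI103920_f_at (0.16), rc_AI104924_f_at (0.33), X15939_f_at (-0.015) and X15939_i_at (-0.027) turned, and with these as a batch term rc_AI103920_f_at (0.021) and rc_AI104924_f_at (0.52). Without the low-GAPDH arrays rc_AI104924_f_at turned to 0.49. With a sample left out, rc_AA891522_f_at ranged from -0.045 to 0.39, rc_AI103920_f_at from -1.34 to 0.62 and rc_AI104924_f_at from -1.65 to 0.65.

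Among ratios against TA_6h, Myh6 over Myh7 turned with rc_AI103920_f_at (2.79), rc_AI104924_f_at (1.24) or X15939_i_at (1.04). With X15939_i_at Myh7 over Myh2 and over Myh4 were both -1.39. Myh7 over Myh2 turned to 0.25 and Myh2 over Myh4 moved to -0.52 without the low-actin arrays, and Myh2 over Myh4 turned to 0.046 without the low-GAPDH arrays. With a sample left out Myh2 over Myh4 ranged from -0.30 to 0.21, Myh7 over Myh2 from -0.49 to 0.12 and Myh7 over Myh4 from -0.29 to 0.028. Against TA_1h, without the low-actin array, Myh7 over Myh2 moved to 0.83 and Myh7 over Myh4 to -0.022; with X15939_i_at these were 0.21 and -0.52 and Myh6 over Myh7 0.41, and with rc_AI103920_f_at or rc_AI104924_f_at the last was 1.92 or 0.22. Without the low-GAPDH arrays Myh1 over Myh4 was 2.06, Myh7 over Myh2 1.41 and Myh7 over Myh4 0.88.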

Other observations

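2 probe sets whose annotation names several myosin genes were left out above because no single gene can be read from them. S68736_at, listed for Myh2, Myh1 and Myh8, gave 12527, 9729, 12489 and 9415 on the EOM arrays, 12819 to 30719 (median 22484) in TA_6h and 17174 to 19040 in TA_1h, so that all EOM arrays lay below all TA arrays. X15939_r_at, listed for Myh7 and Myh6, gave 460, 478, 449 and 330 on the EOM arrays, 1142 to 4323 (median 1841) in TA_6h and 649 to 3227 in TA_1h, again without overlap. On the low-actin arrays it was at 649 to 1941, and on the other 7 TA arrays at 1400 to 4323.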
